A study of Homo sapiens with 23 samples.

Results

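The comparison is of OCI-AML3 cells treated with 40 μM CIGB-300 for 3 h against untreated OCI-AML3 cells of the same time label, on 6 of the 23 arrays of the series (3 of CIGB-300 and 3 untreated). The arrays were chosen by their cell line, time point and agent labels, and every non-control probe set was kept. The 3 untreated arrays have 30 h in their titles but 3 h as their time point, and this label was followed, so the comparison rests on it. Untreated cells had no agent, and no arm with vehicle or with a control peptide was analysed here. OCI-AML3 is an established acute myeloid leukemia (AML) line that carries mutant nucleophosmin, and both groups came from this 1 line. The design text calls the replicates biological, without saying what separated them, so the p-values measure the spread between these arrays. The other arrays hold HL-60 cells, a second AML line, at 3 h and 30 min, and OCI-AML3 cells at 30 min, where untreated cells have 2 arrays. They were used for the common estimate of the spread and for the differences between lines and times.

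CIGB-300 is a cell-penetrating peptide made to block phosphorylation by protein kinase CK2 at the acceptor site of the substrate, and it also binds the catalytic subunit. CK2 is a constitutively active kinase of many nuclear and cytoplasmic proteins, among them nucleophosmin and members of the NF-kB pathway. In myeloid cells, immediate early genes such as the EGR, NR4A, FOS and JUN genes are transcribed within minutes of a stimulus without new protein synthesis.

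Total RNA was measured on Clariom S HT arrays, and values are given on the log2 scale of the deposited RMA (robust multi-array average) table, so that a difference of 1 is a fold of 2. The medians of the 6 arrays were 5.55 to 5.60, and detection above background was not tested. A probe set was called when limma gave an unadjusted p under 0.01 and a fold of at least 1.5, and "rose" or "fell" is used of called probe sets alone. By this rule 231 of 21448 probe sets rose (1.08%) and 112 fell (0.522%). With an adjusted p under 0.05 (Benjamini-Hochberg over all probe sets) as well, 118 rose and 24 fell. These adjusted counts were less stable, with 8 falls without CIGB-300 replicate 3 or without untreated replicate 1, 15 without untreated replicate 3, and 35 rises and 1 fall when the 6 arrays were fitted alone. Of the rises, 185 had a gene symbol and 61 reached a fold of 2, with a median fold of 1.73 and a highest fold of 11.1, while of the falls 99 had a symbol and 9 reached a fold of 2, with a median fold of 1.65 and a highest of 2.24. Rises made up 67.3% of the calls, and 56.9% (201 rises and 152 falls) when each array was centred on its median. All 3 CIGB-300 arrays lay above all 3 untreated arrays in 214 of the 231 rises, against 7.99% of all probe sets. The rises were called on these same arrays, so this separation largely follows from the call and is no separate support for it. About as many calls were dim as bright, with 115 of the rises and 62 of the falls at a mean under the median of the 6 arrays, 5.57.

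The labelled line was checked by its markers. The 10 measured myelomonocytic markers averaged 8.52 to 8.70 on the CIGB-300 arrays and 8.51 to 8.60 on the untreated arrays, and MEIS1, a homeobox partner that is high in AML with mutant nucleophosmin, averaged 7.79 in CIGB-300 cells and 7.63 in untreated OCI-AML3 cells, against 3.24 in untreated HL-60 cells. Of the other markers of this list, CD4, CD14, CD68, CSF1R, LYZ and PBX3 were also higher in untreated OCI-AML3 cells than in untreated HL-60 cells. ANPEP, CSF3R and ITGAM went the other way, at 9.45, 8.59 and 3.72, against 12.64, 8.74 and 4.01 in untreated HL-60 cells. HOXA9 had no single-symbol probe set. Of 4 promyelocytic granule genes, which were listed as HL-60 markers, MPO averaged 5.95 in CIGB-300 cells and 6.02 in untreated OCI-AML3 cells, against 13.08 in untreated HL-60 cells. The other 3 did not mark HL-60 cells in this way. CTSG averaged 12.40 and 12.48 in these OCI-AML3 groups, against 9.76 in HL-60 cells, AZU1 11.41 and 11.45, against 11.45, and PRTN3 11.66 and 11.66, against 12.23. The 9 T and NK cell markers averaged 3.92 to 4.04 on the CIGB-300 arrays and 3.95 to 4.07 on the untreated arrays, with CD2, CD3D and KLRD1 all at or under 2.71 on every one of the 6 arrays and CD3E, CD3G and CD8A at or under 4.14. The cytotoxic granule genes of the list were brighter, GZMB at 6.27 to 6.88 on the CIGB-300 arrays and 6.38 to 7.11 on the untreated arrays, NKG7 at 6.52 to 6.85 and 6.36 to 6.62, and PRF1 at 5.08 to 5.58 and 4.93 to 5.30. No gene of the 7 marker lists was called. The catalytic CK2 subunits CSNK2A1 and CSNK2A2 and nucleophosmin (NPM1) were not called either, with log2 fold changes of -0.08, 0.02 and -0.04 and SEs of 0.08 to 0.09.

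The largest rises were of early transcription factors, and here the groups stood far apart. EGR3, a zinc finger factor of the early growth response family, was at 9.64, 9.64 and 9.56 on the CIGB-300 arrays, against 5.94, 6.83 and 5.63 on the untreated arrays, a log2 fold change of 3.48 ± 0.23 (SE) with an adjusted p of 5.18e-08 from limma. The orphan nuclear receptor NR4A1 was at 9.26, 9.16 and 9.31 on the CIGB-300 arrays, against 6.92, 6.62 and 6.36 on the untreated arrays (2.61 ± 0.17, adjusted p = 4.69e-08). Its paralog NR4A3 was a dim gene that rose by a similar amount, with 5.25, 4.88 and 4.79 in CIGB-300 cells, against 3.08, 1.80 and 2.09 in untreated cells (2.65 ± 0.32). NR4A2, EGR1 and IER3, a stress-responsive early gene, also rose, with log2 fold changes of 1.49, 1.45 and 1.96. EGR1 was at 11.08, 11.24 and 11.28 in CIGB-300 cells, against 9.69, 9.89 and 9.67 in untreated cells. In all, 6 of the 18 measured early regulators rose and none fell, all 3 CIGB-300 arrays lay above all untreated arrays for 13 of the 18, and the median log2 fold change of the list was 0.51, against 0.00069 over all probe sets. Without CIGB-300 replicate 3, 9 of the 18 rose.

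**Figure D1:**
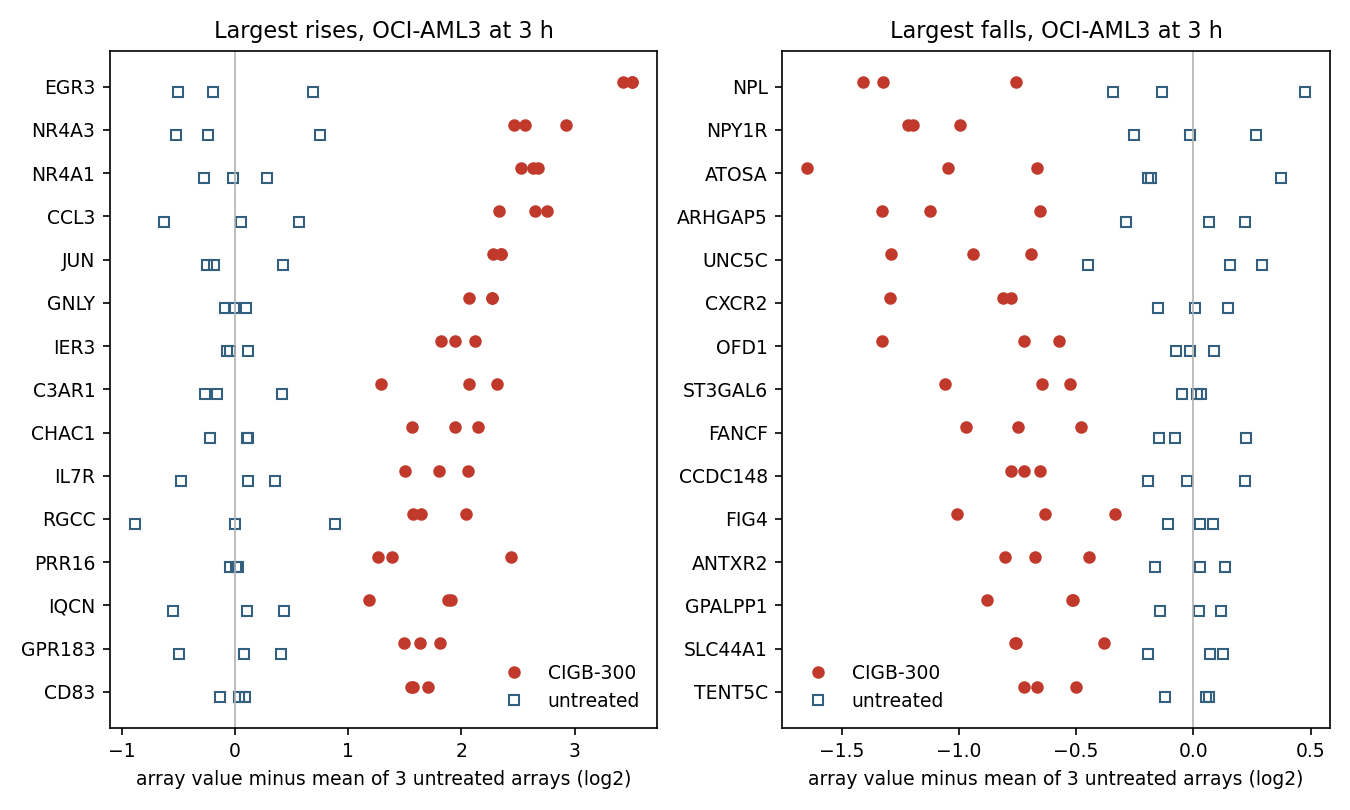
Array values of the 15 largest rises (left) and the 15 largest falls (right) with a gene symbol, an adjusted p under 0.05 and no overlap of the groups, each as the array value minus the mean of the 3 untreated arrays, in log2 units; filled circles are CIGB-300 arrays and open squares are untreated arrays. EGR3 stands 3.48 above the untreated mean on average, and the falls do not go beyond an average of 1.16.

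The promoter of EGR1 is shown because it holds the binding box of serum response factor, the CArG box, which is the known control element of this gene in response to growth factors. The 250 bases before the start of EGR1 in RefSeq (GRCh38.p14, chr5:138465229-138465478, plus strand) are given 5′ to 3′, with the CArG boxes in capitals.
EGR1: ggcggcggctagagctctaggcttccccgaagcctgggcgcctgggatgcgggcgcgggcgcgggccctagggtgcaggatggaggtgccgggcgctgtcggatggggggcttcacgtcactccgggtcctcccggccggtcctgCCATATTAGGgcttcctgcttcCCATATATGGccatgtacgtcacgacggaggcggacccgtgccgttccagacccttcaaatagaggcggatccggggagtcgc
Over both strands of windows of 300 bases (250 before to 50 after the start), a CArG box was found in 1.29% of 27305 RefSeq promoters and in 3.65% of the 137 promoters of genes that rose, and in none of the 80 of genes that fell. The EGR site (GCGTGGGCG or GCGGGGGCG) was found in 12.4% of the promoters of genes that rose and in 2.50% of those of genes that fell, against 5.70% of all promoters and 7.91% of those of the 14250 tested genes. The AP-1 site (TGANTCA) was found in 5.11% of the promoters of genes that rose and 3.75% of those of genes that fell, against 7.76% of all promoters and 5.75% of those of tested genes. These shares are descriptions of letters, and binding was not measured.

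Of 14 measured genes of AP-1, the factor that JUN and FOS proteins form as pairs, and of related bZIP factors, 6 rose and none fell. JUN was at 8.57, 8.64 and 8.65 on the CIGB-300 arrays, against 6.11, 6.72 and 6.05 on the untreated arrays (2.32 ± 0.14, adjusted p = 3.13e-08). JUND, usually the most steadily expressed member, was at 10.23, 10.12 and 9.98 in CIGB-300 cells, against 9.29, 9.13 and 8.73 in untreated cells (1.06 ± 0.18). FOS, FOSB and JUNB rose by 1.02, 1.01 and 0.68, and ATF3, a stress-induced partner of JUN, by 1.56 ± 0.37 with an adjusted p of 0.0523. The value of ATF3 was 0.93 without untreated replicate 2 and 1.98 without untreated replicate 3, and its call was lost when the 6 arrays were fitted alone. JUNB lost its call without CIGB-300 replicate 2 or untreated replicate 3, at 0.58 and 0.54. The cyclic AMP response element (TGACGTCA or TGACGTAA) lay in 3 of the 12 AP-1 promoters searched, those of FOSB, JUND and MAFF, and in 2.44% of all promoters.

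Feedback regulators of MAP kinases rose next to these factors, in 6 of 21 measured members with none fallen. TRIB1, a pseudokinase that directs C/EBPα to degradation, was at 8.76, 8.95 and 8.71 in CIGB-300 cells, against 7.42, 7.62 and 7.44 in untreated cells (1.32 ± 0.09, adjusted p = 7.4e-08). DUSP6, the cytoplasmic phosphatase of ERK, was at 7.56, 7.66 and 7.43 in CIGB-300 cells, against 6.67, 6.46 and 6.60 in untreated cells (0.98 ± 0.13). The phosphatases DUSP1 and DUSP8 rose by 1.23 and 1.09, RGS2, a brake on G protein signalling, by 1.21 and PHLDA1 by 0.89. All 6 kept their groups apart on the arrays. The list's median was 0.21, so most of its other members moved little. ZFP36L1 and ZFP36, which bind AU-rich elements and speed the decay of early and cytokine mRNAs, rose by 0.80 and 0.61, and BTG3 by 0.59. ZFP36 lost its call without untreated replicate 3 (0.54), and BTG3 without any of 3 arrays, CIGB-300 replicate 3 and untreated replicates 1 and 2 (0.51 to 0.56).

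**Figure D2:**
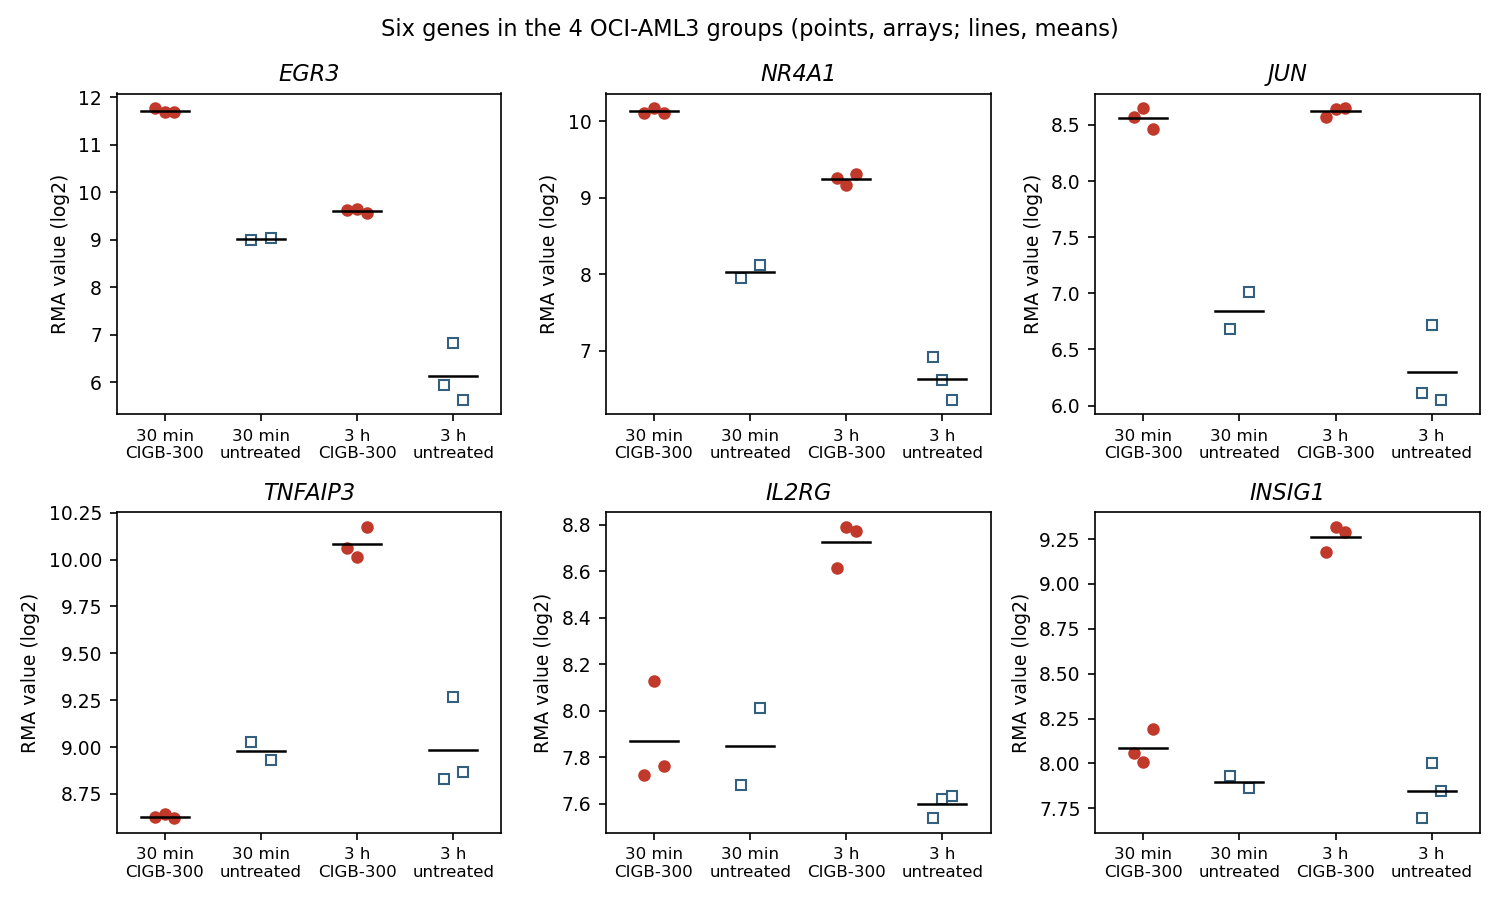
RMA values (log2) of EGR3, NR4A1, JUN, TNFAIP3, IL2RG and INSIG1 on each OCI-AML3 array of both times, drawn for CIGB-300 as filled circles, untreated as open squares and group means as lines. EGR3, NR4A1 and JUN are above untreated at both times, and untreated EGR3 is lower at 3 h than at 30 min. TNFAIP3, IL2RG and INSIG1 have log2 fold changes of 1.10, 1.13 and 1.41 at 3 h, and -0.35, 0.02 and 0.19 at 30 min.

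The level of these early genes in untreated cells was not the same at both times. EGR3 in untreated cells was lower at 3 h than at 30 min by a log2 difference of -2.88, NR4A1 by -1.40, NR4A3 by -1.28, IER3 by -1.26 and EGR1 by -1.07. The response of EGR3 to CIGB-300 was 3.48 at 3 h and 2.70 at 30 min, and that of NR4A1 2.61 and 2.09. Neither pair differed by the test of the difference (adjusted p = 0.474 and 0.524 from limma). The absolute level of both genes in CIGB-300 cells was lower at 3 h than at 30 min, as the plot of the 4 OCI-AML3 groups shows.

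Genes of the NF-kB system rose in 6 of 24 measured members, with none fallen and a median log2 fold change of 0.22, and those called are mostly inhibitors or subunits of the alternative pathway. TNFAIP3 (A20), a deubiquitinase that shuts off NF-kB signalling, was at 10.06, 10.02 and 10.18 in CIGB-300 cells, against 8.83, 9.27 and 8.87 in untreated cells (1.10 ± 0.12, adjusted p = 5.36e-05). NFKBIZ, a nuclear IkB protein that steers secondary response genes, was at 9.43, 9.44 and 9.55 in CIGB-300 cells, against 8.42, 8.36 and 8.37 in untreated cells (1.09 ± 0.12). NFKBIA, the inhibitor that holds NF-kB in the cytoplasm, was at 9.88, 9.62 and 9.79 in CIGB-300 cells, against 9.16, 9.08 and 8.88 in untreated cells (0.72 ± 0.13, adjusted p = 0.00591). The groups did not overlap in any of the 3 genes. The subunits NFKB2 and RELB rose by 1.06 ± 0.20 and 0.96 ± 0.21, while NFKB1, REL and RELA were not called, at 0.37, 0.22 and 0.22. OTUD1, another deubiquitinase, rose by 0.71 and lost its call in 5 of the 6 fits that left out 1 array (0.59 to 0.77 where lost, all but that without CIGB-300 replicate 1).

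Promoters of 3 called members are shown because each holds an NF-kB site within the window searched. They are the 250 bases before the start in RefSeq (GRCh38.p14), 5′ to 3′ along the gene, for TNFAIP3 at chr6:137867009-137867258 on the plus strand, NFKBIA at chr14:35404750-35404999 on the minus strand and NFKBIZ at chr3:101827740-101827989 on the plus strand, with matches on either strand in capitals.
TNFAIP3: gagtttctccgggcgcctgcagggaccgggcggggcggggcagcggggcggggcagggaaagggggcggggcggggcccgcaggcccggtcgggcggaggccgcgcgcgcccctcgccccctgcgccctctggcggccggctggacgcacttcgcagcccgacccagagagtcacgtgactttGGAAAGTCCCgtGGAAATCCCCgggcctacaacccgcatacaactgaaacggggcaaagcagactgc
NFKBIA: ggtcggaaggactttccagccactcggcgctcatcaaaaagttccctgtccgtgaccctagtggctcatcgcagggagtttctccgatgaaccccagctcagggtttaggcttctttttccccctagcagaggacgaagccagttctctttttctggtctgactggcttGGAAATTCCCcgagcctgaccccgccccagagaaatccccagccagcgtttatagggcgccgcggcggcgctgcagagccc
NFKBIZ: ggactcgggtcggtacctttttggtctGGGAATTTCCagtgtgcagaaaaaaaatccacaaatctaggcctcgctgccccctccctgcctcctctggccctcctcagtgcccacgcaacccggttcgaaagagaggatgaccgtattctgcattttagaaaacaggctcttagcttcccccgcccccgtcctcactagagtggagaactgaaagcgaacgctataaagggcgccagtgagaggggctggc
The promoters of 7 of 21 list members held the site (33.3%), those of NFKB1, NFKBIA, NFKBIZ, REL, TNFAIP3, TNIP3 and TRAF3, against 7.41% of all promoters, 13.1% of those of genes that rose and 5.00% of those of genes that fell. Of these, NFKBIA, NFKBIZ and TNFAIP3 were called and NFKB1, REL, TNIP3 and TRAF3 were not. Among the promoters of the 14250 tested genes the share was 8.48%. It varied between lists and was not particular to this one. It was 47.1% (8 of 17) in chemokines, 33.3% (2 of 6) in HOX genes and partners, which had no call, and 4.35% (1 of 23) in ribosome biogenesis. A link between site and call was not tested.

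Inflammatory targets of NF-kB were a less even group. CD83, a surface marker of mature dendritic cells, was at 8.79, 8.77 and 8.92 in CIGB-300 cells, against 7.25, 7.31 and 7.09 in untreated cells (1.61 ± 0.12, adjusted p = 2.2e-07). BCL2A1, an anti-apoptotic BCL2 relative, and GADD45B, a stress sensor, rose by 0.80 ± 0.09 and 0.60 ± 0.10 with the groups apart. PTGS2, the inducible cyclooxygenase, PTX3, ICAM1 and TNFAIP6 rose with wide errors, by 1.08 ± 0.31, 0.65 ± 0.22, 0.64 ± 0.19 and 0.62 ± 0.22, and the groups overlapped for ICAM1 and TNFAIP6. These were 7 of 18 measured members, with none fallen. TNF, SOD2 and SERPINB2 were listed too, but had no single-symbol probe set and were not analysed. The study counts TNF among the genes changed in all its comparisons. At an adjusted p under 0.05 from limma with no fold required, 4 of the 18 were higher and 2 lower, the lowest member being at -0.49. The count was 3 without CIGB-300 replicate 3, and 4 without untreated replicate 1 or without untreated replicate 3. GADD45B, with 0.57 without untreated replicate 3, was among those that lost a call, as were PTGS2 (0.76 to 1.02), PTX3 (0.50 to 0.68), ICAM1 (0.45 to 0.61) and TNFAIP6 (0.46 to 0.62) in 3 or 4 such fits each.

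Among chemokines, 5 of 22 rose and none fell. CCL3, an attractant of monocytes, was at 7.86, 7.55 and 7.97 in CIGB-300 cells, against 4.59, 5.78 and 5.27 in untreated cells (2.58 ± 0.29, adjusted p = 4.54e-05). CCL3 shares near-identical sequence with CCL3L3, whose groups overlapped at 3 h (0.62 ± 0.22, adjusted p = 0.268), and which of these paralogs the signal comes from is uncertain. CXCL8, the neutrophil attractant interleukin 8, was at 11.72, 11.65 and 11.68 in CIGB-300 cells, against 10.71, 10.74 and 10.35 in untreated cells (1.08 ± 0.19). CXCL10 rose by 1.44 ± 0.32, and its 3 CIGB-300 values of 6.15, 5.29 and 5.22 lay close above the highest of the untreated values, 3.69, 5.10 and 3.55. CCL2, the monocyte attractant, rose by 0.87 ± 0.14. CXCL3 rose by 0.98 ± 0.26 and lost its call without untreated replicate 3 (0.81).

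Of 26 cytokines, IL1B, OSM and LIF rose and TNFSF13 fell. IL1B, the inflammasome cytokine, was at 10.70, 10.68 and 10.82 in CIGB-300 cells, against 9.35, 9.43 and 9.30 in untreated cells (1.37 ± 0.12, adjusted p = 1.84e-06). The related gp130 cytokines OSM and LIF rose by 0.98 ± 0.23 and 0.70 ± 0.18, and IL6ST, which encodes their shared receptor chain gp130, rose too, by 0.87 ± 0.17. TNFSF13 (APRIL) fell by 0.71 on the log2 scale and lost its call in 4 of the 6 fits without 1 array, those without CIGB-300 replicates 1 and 2 and untreated replicates 1 and 3 (-0.70 to -0.53).

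Several receptors and effectors better known from lymphocytes rose, while none of the 9 T and NK cell markers given above was called. GNLY, the pore-forming granulysin, was at 6.15, 6.34 and 6.34 in CIGB-300 cells, against 4.17, 3.99 and 4.07 in untreated cells (2.20 ± 0.28, adjusted p = 0.000183). IL7R, the receptor chain of interleukin 7, was at 8.10, 7.79 and 8.35 in CIGB-300 cells, against 6.64, 5.82 and 6.41 in untreated cells (1.79 ± 0.20). IL2RG, the common γ chain with which IL7R pairs, was at 8.61, 8.79 and 8.77 in CIGB-300 cells, against 7.54, 7.62 and 7.63 in untreated cells (1.13 ± 0.10, adjusted p = 2.84e-06). Both chains thus rose with no overlap between the groups. IL27RA rose by 0.76 ± 0.10, and IL18RAP fell by 0.73 on the log2 scale, a call lost without CIGB-300 replicate 1 or untreated replicate 3 (-0.66 in both fits). The 28 probe sets of cytokine receptors as a whole had a median of 0.07, so the rises were a minority of 4.

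Receptors of chemoattractants and other immune surface genes went both ways, with 4 rises and 5 falls among 26 members and a median of -0.02. C3AR1, the receptor of complement fragment C3a, was at 5.56, 5.31 and 4.54 in CIGB-300 cells, against 3.09, 3.66 and 2.99 in untreated cells (1.89 ± 0.24). GPR183, an oxysterol receptor that guides leukocyte migration, was at 8.54, 8.36 and 8.23 in CIGB-300 cells, against 7.14, 6.81 and 6.24 in untreated cells (1.65 ± 0.16). In the other direction, CXCR2, the receptor of CXCL8 and CXCL3, was at 6.30, 5.82 and 6.34 in CIGB-300 cells, against 7.26, 7.12 and 6.97 in untreated cells, and fell by 0.96 on the log2 scale (SE 0.16, adjusted p = 0.0044). Ligand and receptor thus moved in opposite directions on the same arrays. TREM1 and CYTIP rose by 0.78 and 0.95. The falls of SCIMP, FCRL1, GPBAR1 and CR2 had adjusted p-values of 0.0772 to 0.247, and the count of 5 falls became 2 without untreated replicate 3 and 3 without CIGB-300 replicate 1 or without untreated replicate 2.

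Growth and angiogenic factors, with some receptors, were the list with the most rises, 14 of 29, beside 2 falls, with a median of 0.53. Of all probe sets, 1.08% rose and 0.522% fell. As for every list here, the members were chosen with earlier results of these data known. The count, the median and the rank of the list therefore follow in part from that choice. IGFBP3, a carrier of insulin-like growth factors, was at 8.33, 8.32 and 8.55 in CIGB-300 cells, against 7.35, 7.08 and 6.94 in untreated cells (1.28 ± 0.18, adjusted p = 0.00058). HGF, the hepatocyte growth factor, was nearly equal on the 3 CIGB-300 arrays, 8.82, 8.84 and 8.86, against 7.70, 7.90 and 7.79 on the untreated arrays (1.04 ± 0.21). PDGFA, a platelet-derived growth factor chain, was at 8.82, 8.68 and 8.26 in CIGB-300 cells, against 7.58, 7.50 and 7.33 in untreated cells (1.12 ± 0.17). NRG1, an ERBB receptor ligand, was dim and rose by 1.56 ± 0.28. The VEGF receptor FLT1 rose by 1.19, the glycoprotein hormone STC1 by 1.09, the activin subunit INHBA by 0.98 and LRG1 by 0.85. NPY1R, the neuropeptide Y receptor, and TAC3 fell, the call of TAC3 being lost without untreated replicate 2 (-0.52). The number of rises was 9 to 11 without 1 array, 12 on OCI-AML3 arrays alone and 8 with the filter on dim probe sets, 16 of the 29 members being dim. It was 9 without CIGB-300 replicate 2, without CIGB-300 replicate 3 or without untreated replicate 1, INHBA being called in all but the last of these (0.81). DKK2 lost its call in all 6 fits without 1 array (0.73 to 0.87), CCN5 in 5, HBEGF in 4, and SEMA5A, SEMA5B and STC2 in 3 each.

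Genes of the extracellular matrix and its proteases rose in 10 of 25 members, with none fallen and a median of 0.39. ADAMTS1, a secreted protease that cleaves aggrecan and versican, was at 10.59, 10.54 and 10.54 in CIGB-300 cells, against 9.15, 9.15 and 9.01 in untreated cells (1.46 ± 0.12, adjusted p = 1.01e-06). THBS1, the antiangiogenic thrombospondin, was at 7.26, 7.40 and 7.31 in CIGB-300 cells, against 6.13, 6.03 and 5.56 in untreated cells (1.42 ± 0.29). CEMIP, which binds and degrades hyaluronan, rose by 1.45 ± 0.28 and the macrophage elastase MMP12 by 1.08 ± 0.19, both at low signal. MMP9, FN1, CAV1 and MMP1 rose by 0.92, 0.86, 0.72 and 0.68, with adjusted p-values of 0.114 to 0.203. The number of rises was 5 without untreated replicate 1, and 6 without untreated replicate 2 or without CIGB-300 replicate 3. MMP9 lost its call without untreated replicate 2 (0.83), and FN1 (0.65 to 0.82), CAV1 (0.58 to 0.68) and MMP1 (0.58 to 0.66) lost theirs in 3 or 4 such fits each.

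**Figure D3:**
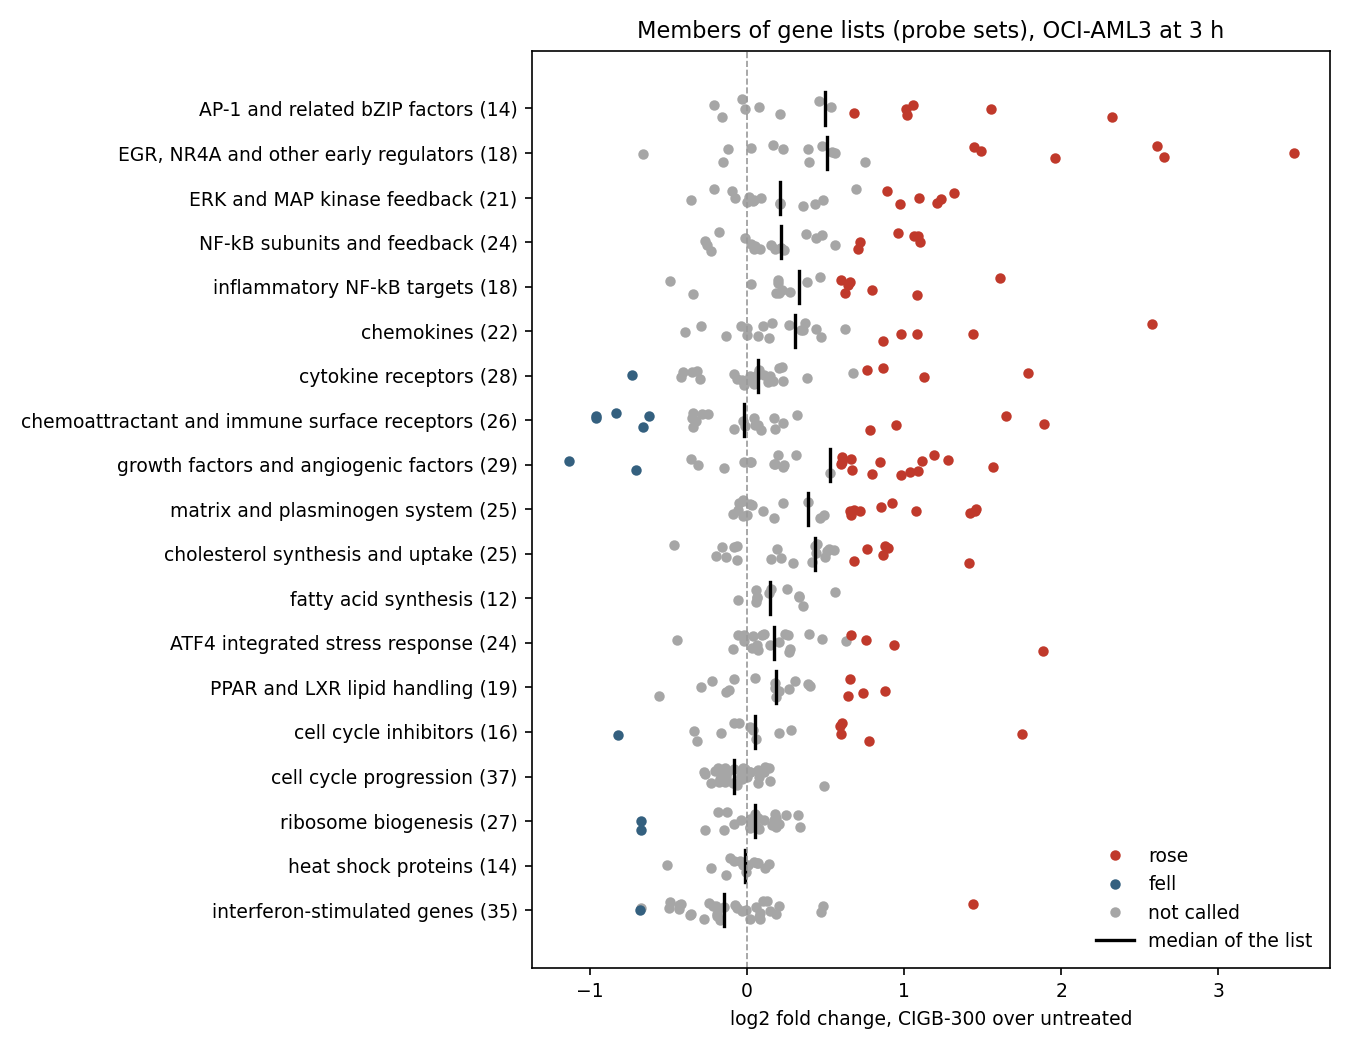
Log2 fold change (CIGB-300 over untreated) of every measured member of 19 gene lists in OCI-AML3 cells at 3 h, with called rises and falls in colour, members not called in gray and a bar at each list's median. The medians run up to 0.53 in growth factors. The 37 genes of cell cycle progression, with no call, lie between -0.27 and 0.49 with a median of -0.08.

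Genes of cholesterol synthesis gave modest rises with little spread between arrays. Cells make cholesterol from acetyl-CoA through mevalonate and squalene, and the genes of this route are transcribed together by SREBP2 (SREBF2) when sterols in the endoplasmic reticulum are low, while the INSIG proteins hold SREBP back. INSIG1 was at 9.18, 9.32 and 9.29 in CIGB-300 cells, against 7.70, 8.0 and 7.85 in untreated cells (1.41 ± 0.10, adjusted p = 2.18e-07). HMGCS1, which makes HMG-CoA at the entry of the route, was at 8.80, 8.86 and 8.73 in CIGB-300 cells, against 7.89, 7.92 and 7.98 in untreated cells (0.87 ± 0.10). IDI1, the isomerase of isopentenyl diphosphate, was at 10.31, 10.49 and 10.40 in CIGB-300 cells, against 9.59, 9.47 and 9.51 in untreated cells (0.88 ± 0.11). On each of these genes the spread within a group was far smaller than the gap between the groups. SQLE, the squalene epoxidase, was at 9.09, 9.17 and 9.05 in CIGB-300 cells, against 8.33, 8.46 and 8.47 in untreated cells (0.68 ± 0.12). MSMO1, a demethylase of sterol intermediates, was at 10.93, 11.06 and 11.05 in CIGB-300 cells, against 10.10, 10.19 and 10.06 in untreated cells (0.90 ± 0.09, adjusted p = 1.02e-05). HSD17B7 rose with more spread, 0.76 ± 0.22 with an adjusted p of 0.14, and lost its call without CIGB-300 replicate 1 or untreated replicate 2 (0.73 and 0.51).

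Of the 31 genes listed for cholesterol synthesis and uptake, the 25 that had a probe set with their symbol were analysed. Of these, 6 rose and none fell (24%), all 3 CIGB-300 arrays lay above all untreated arrays in 15, and the median log2 fold change was 0.43. Some other enzymes of the route that were not called lay above untreated too, with 0.43 ± 0.08 for DHCR7, 0.41 ± 0.08 for EBP, 0.52 ± 0.14 for MVK and 0.51 ± 0.15 for SC5D, each under a fold of 1.5. SREBF2 itself was at -0.13 ± 0.10, with overlapping groups. The median of the same list was 0.02 for HL-60 cells at 3 h and 0.08 for OCI-AML3 cells at 30 min. Between lines, the response differed for INSIG1 (adjusted p = 8.97e-05) and MSMO1 (adjusted p = 0.0173), but not for HMGCS1 or SQLE, which had 0.74 and 0.55 in HL-60 cells (adjusted p of the difference 0.81 and 0.84). INSIG1 was the 1 member whose response differed between times (1.23, adjusted p = 0.00242).

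**Figure D4:**
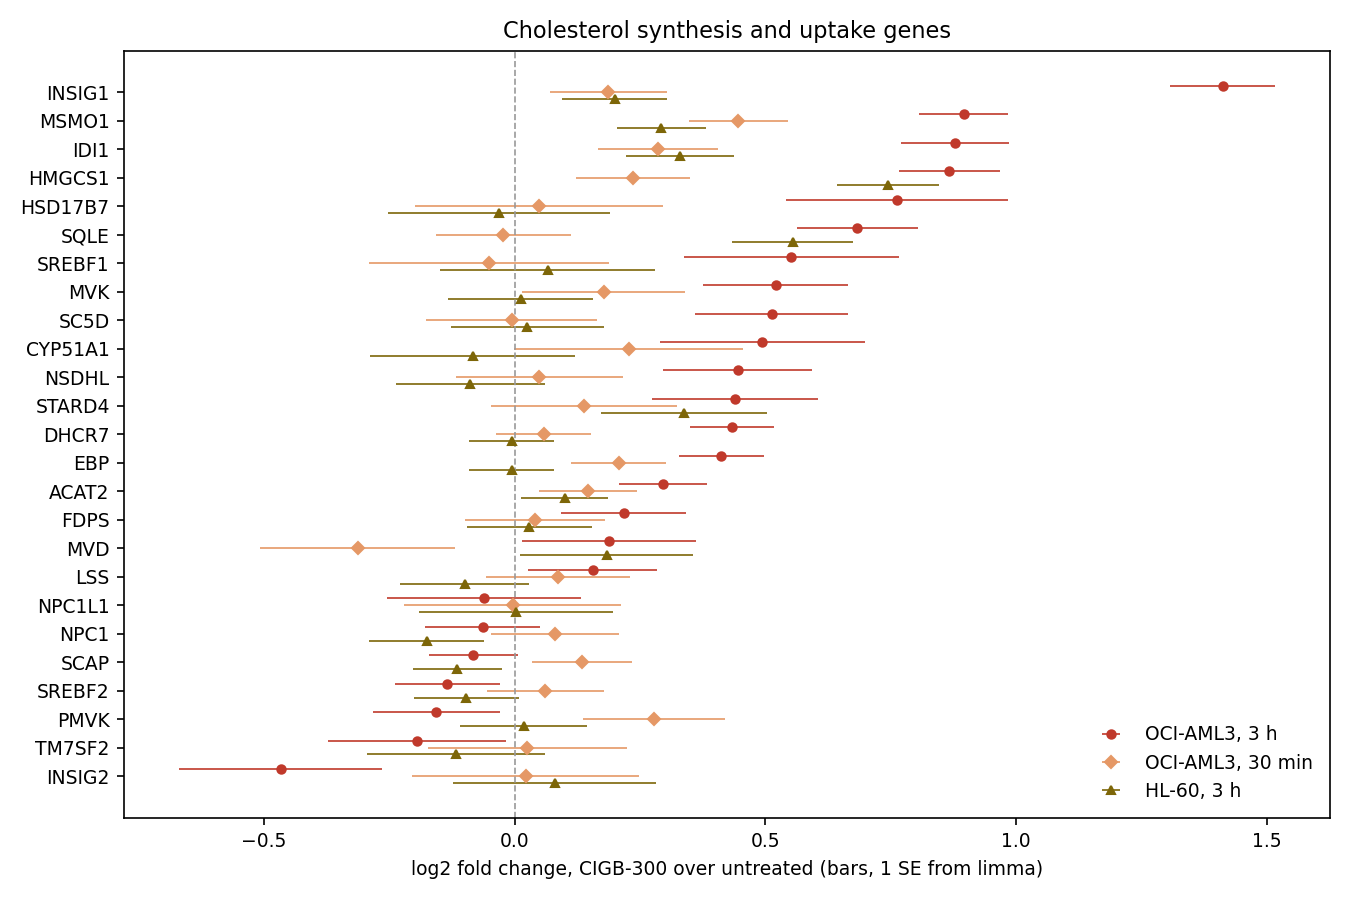
Log2 fold change (CIGB-300 over untreated) with 1 SE of the 25 measured genes of cholesterol synthesis and uptake in OCI-AML3 cells at 3 h (circles), OCI-AML3 cells at 30 min (diamonds) and HL-60 cells at 3 h (triangles), ordered by the first. INSIG1 leads at 1.41, and 18 of the 25 are above 0 in OCI-AML3 cells at 3 h.

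Promoters of 3 of these genes are shown for the CCAAT box, read as ATTGG on the other strand, which NF-Y binds and which commonly lies beside sterol-regulated sites. This box was added to the search after the other motifs. The sequences are the 250 bases before the start in RefSeq (GRCh38.p14), 5′ to 3′ along the gene, of INSIG1 at chr7:155297628-155297877 on the plus strand, HMGCS1 at chr5:43313413-43313662 on the minus strand and MSMO1 at chr4:165327419-165327668 on the plus strand, with the box in capitals on either strand.
INSIG1: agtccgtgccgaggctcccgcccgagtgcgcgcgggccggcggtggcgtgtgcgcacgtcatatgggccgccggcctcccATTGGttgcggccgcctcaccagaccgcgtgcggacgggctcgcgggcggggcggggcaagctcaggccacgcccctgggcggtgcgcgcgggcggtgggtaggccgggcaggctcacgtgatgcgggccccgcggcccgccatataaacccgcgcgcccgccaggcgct
HMGCS1: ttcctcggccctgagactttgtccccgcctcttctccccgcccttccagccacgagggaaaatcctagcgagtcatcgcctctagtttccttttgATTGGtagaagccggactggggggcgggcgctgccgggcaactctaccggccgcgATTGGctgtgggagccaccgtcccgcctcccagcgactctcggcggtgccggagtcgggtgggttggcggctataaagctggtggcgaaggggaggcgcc
MSMO1: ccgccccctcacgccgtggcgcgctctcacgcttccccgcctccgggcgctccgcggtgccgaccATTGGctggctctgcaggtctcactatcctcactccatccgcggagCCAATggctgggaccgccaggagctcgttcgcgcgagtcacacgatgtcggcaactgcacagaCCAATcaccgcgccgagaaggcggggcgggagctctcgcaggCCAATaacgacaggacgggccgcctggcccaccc
The box lay in 16 of the 23 list promoters searched (69.6%), against 35.7% of all promoters, 34.3% of those of genes that rose and 25% of those of genes that fell. The share varied between lists and was not particular to this one. It was 68.2% (15 of 22) in the ATF4 list, 67.9% (19 of 28) in cell cycle progression, which had no call, and 14.3% (3 of 21) in the NF-kB list. The sterol regulatory element as searched (TCACNCCAC) was found in 1 of the 23, that of SREBF2, and in 1.15% of all promoters.

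Other lipid genes moved less. None of 12 fatty acid synthesis genes was called, with a median of 0.15. The desaturase SCD was at 0.33 ± 0.07 (adjusted p = 0.0236), under the fold required, and the synthase FASN at 0.06 ± 0.09. In the PPAR and LXR list 4 of 19 rose and none fell, PPARD by 0.88 ± 0.17, FABP3 by 0.74 ± 0.16, LPL by 0.66 ± 0.22 and PPARG by 0.64 ± 0.17. That count was 2 without CIGB-300 replicate 3 or without untreated replicate 2, and PPARG (0.58 and 0.46) and LPL were lost in both of these fits. LPL was also lost without CIGB-300 replicate 1 and without untreated replicate 1 (0.55 to 0.64 over the 4).

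Stress responses were partial. In the ATF4 list of the integrated stress response, 4 of 24 rose. CHAC1, which degrades glutathione, was at 8.62, 8.24 and 8.82 in CIGB-300 cells, against 6.46, 6.78 and 6.79 in untreated cells (1.89 ± 0.28, adjusted p = 0.00148). PPP1R15A (GADD34), the phosphatase cofactor that ends the response, rose by 0.94 ± 0.13, and DDIT4 and STC2 by 0.76 and 0.66. The amino acid genes of the same list were not called, ASNS being at 0.04 ± 0.09 and TRIB3 at 0.15 ± 0.09, and ATF4 mRNA was at 0.39 ± 0.07 (adjusted p = 0.0057), under a fold of 1.5. SAT1, SLC30A1 and HMOX1 rose among 19 heme, metal and NRF2 genes, by 0.81, 0.65 and 0.92. None of 14 heat shock genes was called. STC2 was not called without CIGB-300 replicates 2 or 3 or untreated replicate 3 (0.49 to 0.63), nor HMOX1 without CIGB-300 replicate 1 or 3 (0.79 and 0.74).

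Genes that control growth and death differed by list, with 5 rises and 1 fall among 16 genes listed as inhibitors of the cell cycle but no call in cell cycle progression. Of 37 genes of cell cycle progression none was called, and the median was -0.08. MKI67 and CDK1 were at 0.07 ± 0.09 and -0.01 ± 0.12, but most members lay below 0. Only 11 of the 37 were above 0, against 10756 of all 21448 probe sets. In 13 of the 37 all 3 CIGB-300 arrays lay below all 3 untreated arrays, and in none did they lie above. RGCC, a regulator of the cell cycle counted among the 16 listed inhibitors, was at 5.58, 5.51 and 5.98 in CIGB-300 cells, against 3.05, 3.94 and 4.82 in untreated cells (1.75 ± 0.33, adjusted p = 0.0123). Its untreated spread was wider than that of most genes named here. CDKN1A (p21) was at 9.64, 9.42 and 9.52 in CIGB-300 cells, against 8.92, 8.72 and 8.60 in untreated cells. The 3 values lay above the others, yet its SE of 0.25, which draws on the spread of all groups, gave an adjusted p of 0.211, and the call was lost in every fit that left out 1 array except that without untreated replicate 1 (0.70 to 0.83 where lost). CDKN2B, GADD45B and BTG3 rose by 0.61, 0.60 and 0.59, and YPEL3 fell. The list's 5 rises were 3 without CIGB-300 replicate 2, CIGB-300 replicate 3 or any of the 3 untreated arrays in turn, and CDKN2B had 0.46 and 0.57 in the 2 fits, those without untreated replicate 1 and CIGB-300 replicate 2, that lost it.

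In the BCL2 family PMAIP1 (NOXA), a BH3-only sensitizer to apoptosis, was at 7.09, 6.78 and 7.22 in CIGB-300 cells, against 6.27, 5.94 and 5.63 in untreated cells (1.09 ± 0.18, adjusted p = 0.00464). BCL2A1, which opposes apoptosis, rose as given above, and the other 13 members were not called, MCL1 and BCL2L11 being at 0.22 and 0.23. Of 19 p53 targets CDKN1A rose, and TP53INP1 and PERP fell, by 0.93 and 0.72 on the log2 scale. Both falls were lost without CIGB-300 replicate 3 and without untreated replicate 1, and that of PERP also without untreated replicate 3 (-0.76 to -0.66 for TP53INP1 and -0.70 to -0.54 for PERP).

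The falls were smaller, fewer and belonged to no list with more than 5 members fallen. NPY1R was at 5.69, 5.89 and 5.67 in CIGB-300 cells, against 6.63, 6.87 and 7.15 in untreated cells, and fell by 1.14 on the log2 scale (SE 0.23, adjusted p = 0.0195). NPL, a lyase of sialic acid, was at 4.41, 3.84 and 3.76 in CIGB-300 cells, against 4.82, 5.03 and 5.64 in untreated cells (-1.16 ± 0.27). ARHGAP5, a GTPase-activating protein, was at 4.17, 3.70 and 3.50 in CIGB-300 cells, against 4.90, 5.05 and 4.54 in untreated cells (-1.04 ± 0.20). NPL and ARHGAP5 lay under the array median of 5.57 on 5 or more of the 6 arrays. ST3GAL6, a sialyltransferase of selectin ligands, varied little in untreated cells, with 6.27, 6.69 and 6.81 in CIGB-300 cells, against 7.28, 7.35 and 7.36 in untreated cells (-0.74 ± 0.12, adjusted p = 0.00228). FANCF, of the Fanconi anemia core complex, and OFD1, a centriolar protein, fell by 0.73 and 0.87 on the log2 scale. The glucose transporter SLC2A1 was at 8.51, 8.58 and 8.38 in CIGB-300 cells, against 9.07, 9.22 and 9.02 in untreated cells, and fell by 0.61 (SE 0.12), close to the fold required. It lost its call without CIGB-300 replicate 3 or untreated replicate 2 (-0.56 and -0.55), and none of the other 24 glucose genes was called.

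The response was set against that of HL-60 cells at 3 h by the difference of the 2 responses, which share no array. It differed at an adjusted p under 0.05 in 266 probe sets (1.24%), 104 higher and 162 lower in OCI-AML3 cells. Of the 343 probe sets called in OCI-AML3 cells, 56 were among them. In these, 28 rises were larger in OCI-AML3 cells, 21 rises were larger in HL-60 cells, 6 falls were lower in OCI-AML3 cells and 1 was lower in HL-60 cells. The same OCI-AML3 arrays gave both the calls and the difference, so this split leans to OCI-AML3 cells by selection. TRIB1 was one of those with more change in OCI-AML3 cells, with 1.32, against 0.34 in HL-60 cells (adjusted p of the difference 0.00019). GPR183 had 1.65 in OCI-AML3 cells, against 0.09 in HL-60 cells (adjusted p = 0.00089), and IGFBP3 1.28, against -0.41 (adjusted p = 0.00082). DUSP6 went in opposite directions, with 0.98 in OCI-AML3 cells and -0.68 in HL-60 cells (adjusted p = 4.8e-05). JUN had the larger response in OCI-AML3 cells (2.32, against 1.35) and EGR3 in HL-60 cells (3.48 in OCI-AML3 cells, against 5.38).

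Most NF-kB genes that differed between lines had the larger response in HL-60 cells. NFKBIA had 0.72 in OCI-AML3 cells, against 2.92 in HL-60 cells (difference -2.20, adjusted p = 4.53e-07), and NFKB2, RELB and TNFAIP3 had 1.06, 0.96 and 1.10, against 2.73, 2.27 and 2.03 in HL-60 cells. NFKBIZ was the exception, with 1.09 in OCI-AML3 cells, against 0.14 in HL-60 cells (adjusted p = 0.0042). In all, 8 of the 24 NF-kB genes differed between lines, 1 of them in favour of OCI-AML3 cells. PDGFA and ICAM1 had 1.12 and 0.64 in OCI-AML3 cells, against 3.34 and 2.13 in HL-60 cells. NR4A1, IL1B and PPP1R15A did not differ between lines at that threshold (2.61, 1.37 and 0.94, against 2.91, 1.16 and 0.76 in HL-60 cells), with differences of -0.29 ± 0.24, 0.21 ± 0.17 and 0.18 ± 0.18.

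**Figure D5:**
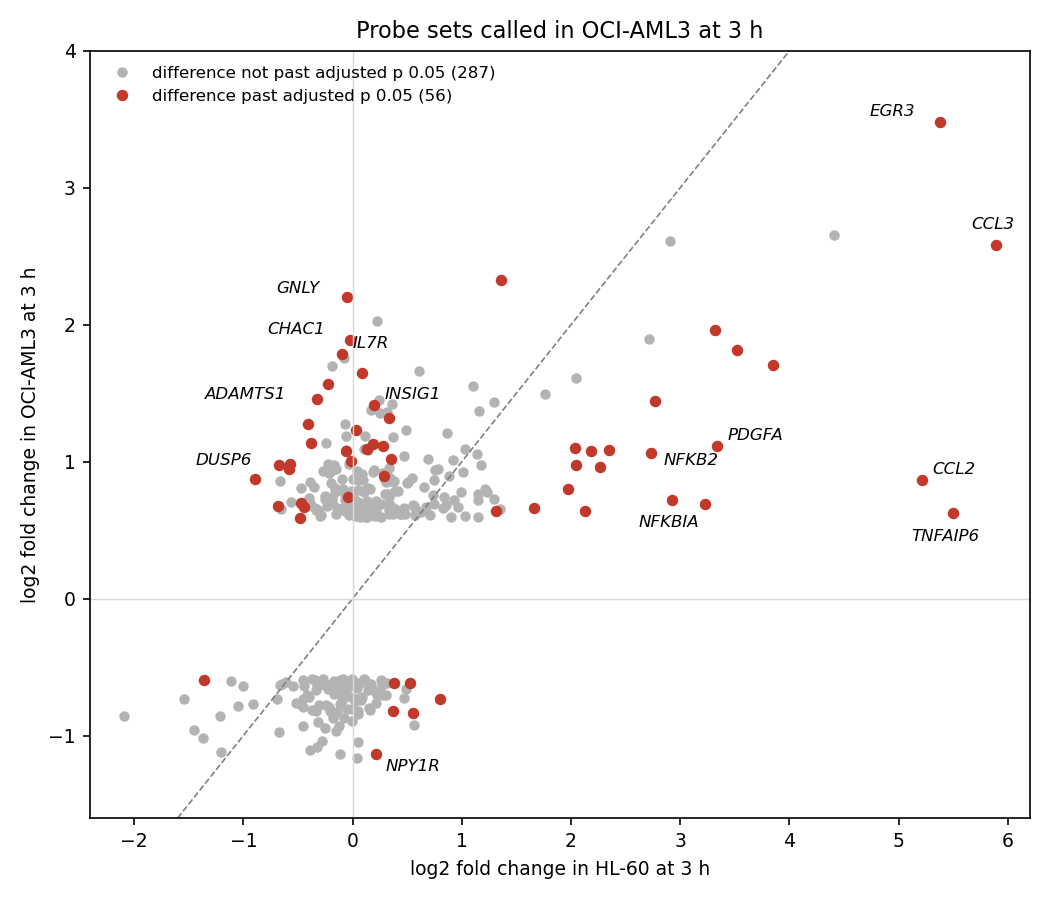
Log2 fold change (CIGB-300 over untreated) at 3 h in OCI-AML3 cells (vertical axis) against HL-60 cells (horizontal axis) for the 343 probe sets called in OCI-AML3 cells, with the 56 whose responses differ at an adjusted p under 0.05 in red and the line of equal response dashed. GNLY, CHAC1, IL7R and ADAMTS1 lie near 0 in HL-60 cells, whereas CCL2 and TNFAIP6 exceed 5 there.

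Against OCI-AML3 cells at 30 min, whose arrays are also others, 15 probe sets differed in response (0.0699%), 13 higher and 2 lower at 3 h, and 11 of the 15 were called at 3 h. That overlap is not independent, because the 3 h arrays enter both the calls and the difference. The count of 15 was 9 without CIGB-300 replicate 1, 2 when OCI-AML3 arrays were fitted alone and 49 with a trended and robust variance. With 2 untreated arrays at 30 min this test has the least precision of those given. Named among them, TNFAIP3 had a response of 1.10 at 3 h, against -0.35 at 30 min (adjusted p = 0.00242), and CD83 1.61, against 0.34 (adjusted p = 0.00471). IL2RG had 1.13 at 3 h, against 0.02 at 30 min (adjusted p = 0.00467). INSIG1 had 1.41 at 3 h, against 0.19 at 30 min. NFKB2, NFKBIA and RELB had 0.01, 0.04 and -0.01 at 30 min, and GNLY, IL7R and IGFBP3 0.47, 0.36 and 0.00, without passing the test of the difference. CCL3, IL1B and ADAMTS1 had 2.42, 1.35 and 1.84 at 30 min, and 2.58, 1.37 and 1.46 at 3 h.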

How the data were processed

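Total RNA of 23 samples (8 groups of 3, untreated OCI-AML3 cells at 30 min having 2) was measured on Clariom S HT arrays. The deposited values are log2 expression, which the authors obtained by RMA background adjustment, quantile normalization over all arrays and robust summarisation. The submitters' processing notes name RMA and limma, and their versions are not given in the sources used here. Of 27189 features, 5741 controls were left out and 21448 tested, of which 17709 carry 1 gene symbol in GEO's platform annotation and 3739 none. All 23 arrays entered a single fit with a coefficient for each group and no block, in R 4.3.3 with the package limma 3.58.1 and its standard eBayes step (median degrees of freedom 18.2). Contrasts were CIGB-300 minus untreated, and differences of such responses between lines and between times. Calls used an unadjusted p under 0.01 with a fold of at least 1.5, after the study's methods, and adjusted p-values are Benjamini-Hochberg over all probe sets of a contrast. Gene lists were described by counts and medians alone. The members and lists were chosen with earlier results of these data known.

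Genes were named if among the 15 largest rises or falls that had a symbol, groups apart and an adjusted p under 0.05, if called within a list (at most 8 a list, or up to 3 defining members), if among the 6 largest differences each way, or if the study names them; others were named with their values seen. Promoters came from the RefSeq table (GRCh38.p14), and 14250 tested genes matched by symbol. Alternatives were fits on fewer arrays or without 1 array, a replicate block, a trended and robust variance, array weights, other normalizations, a filter on dim probe sets and other thresholds. On simulated data with the arrays of OCI-AML3 cells at 3 h and 200 changed genes of 21448, 59.7%, 94.0% and 100% of 1.5-fold, 2-fold and 3-fold changes were found, and 86 of 21248 unchanged probe sets were called. Within groups the median SD was 0.124 to 0.177, and the number of arrays limits the precision. Tables were made with pandas 2.3.3 under Python 3.11.15, and figures with matplotlib 3.10.9.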

Additional observations from a re-analysis of the deposited data

Results flagged for a closer look

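Responses to CIGB-300 at 3 h that differed most between the lines, as OCI-AML3 minus HL-60 on the log2 scale and with an adjusted p under 0.05 from limma, were higher in OCI-AML3 cells for GNLY (2.254), SLAMF6 (2.216), CHAC1 (1.907), IL7R (1.882), NRG1 (1.788) and ADAMTS1 (1.779). SLAMF6 was not called in OCI-AML3 cells (0.23), and its difference came with -1.98 in HL-60 cells.

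They were lower in OCI-AML3 cells for CD69 (-4.918), TNFAIP6 (-4.879), CCL1 (-4.846), CCL3L3 (-4.743), CCL2 (-4.343) and CCL20 (-3.725). CD69, an early activation marker of leukocytes, and the chemokines CCL1 and CCL20 were not called in OCI-AML3 cells, at -0.15, -0.04 and 0.37, against 4.77, 4.81 and 4.10 in HL-60 cells. CCL3L3 shares near-identical sequence with CCL3.

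Responses of OCI-AML3 cells that differed between times, as 3 h minus 30 min, were higher at 3 h for C8orf74 (1.854), TNFAIP3 (1.448), CD83 (1.273), INSIG1 (1.225), OR10AG1 (1.117) and IL2RG (1.105), and lower for PWWP3A (-1.076). C8orf74 and OR10AG1 were not called at 3 h (0.33 and 0.21), and their differences came with -1.53 and -0.91 at 30 min. PWWP3A was at -0.59 at 3 h, a fall, and at 0.49 at 30 min, where CIGB-300 cells were the higher, and it lost its call at 3 h without CIGB-300 replicate 2 or untreated replicate 2 (-0.51 and -0.56).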

How the results depend on the processing

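The 231 rises and 112 falls were within 1.5 times of these counts in every other fit, from OCI-AML3 arrays alone to array weights, and leaving out 1 array gave 233 to 280 rises and 106 to 135 falls. A filter that kept the 10821 brighter probe sets left 130 rises and 59 falls, a fold of at least 2 left 61 and 9, and an adjusted p under 0.05 left 118 and 24, each by construction fewer. By the same rule the response differed between lines in 639 probe sets (388 with the filter, 247 with a fold of at least 2, 247 with an adjusted p under 0.05, and 637 to 677 without 1 array) and between times in 467 (270, 158, 15 and 444 to 499). With an adjusted p under 0.05, the 118 rises were 35 on the 6 arrays alone and 81 to 103 without 1 array, and the 24 falls were 10 on OCI-AML3 arrays alone, 1 on the 6 arrays alone, 40 with arrays centred on their median and 8 to 22 without 1 array. At that threshold, with no fold required, the 266 line differences were 432 with a trended and robust variance, 409 with the filter and 196 to 227 without 1 array, and the 15 time differences were 2 on OCI-AML3 arrays alone, 49 with a trended and robust variance, 23 with array weights, 32 with the filter and 9 to 17 without 1 array. Between times, 2103 probe sets had an unadjusted p under 0.05. A replicate block gave 232 rises, 119 falls, and 658 and 495 differences. Same-numbered arrays of both groups correlated at 0.081, 0.031 and 0.074 after group means were removed, each under the 0.1 required here of a pairing, so the numbers were not taken as pairs. The 6 correlations of different numbers were all negative (-0.073 to -0.0042), and 5 of the 6 arrays, and 13 of all 23, had their best partner among arrays of the same number, a hint of pairing from the data and not from the design. Under the block 7 of 163 genes that were called in a list or named by the rule lost a call (ARHGAP20, CITED1, HBEGF, LPL, OTUD1, SEMA5B and TNFAIP6). Of the 156 of these that were called, 65 lost the call without 1 array or another. CCL1 and CD69, which were not called, changed sign: CCL1 ran from -0.34 without CIGB-300 replicate 3 to 0.25 without CIGB-300 replicate 1, and was 0.04 without untreated replicate 3. CD69 ran from -0.46 without CIGB-300 replicate 2 to 0.087 without CIGB-300 replicate 1, and was 0.02 without untreated replicate 1. Why these counts move was not tested beyond what each setting does by construction. Limits are the 3 arrays a group, 1 cell line, untreated titles that disagree with their time label, dim probe sets without a detection test, and the absence here of a vehicle or control peptide. A lower signal from fewer cells and from less RNA per cell cannot be told apart in bulk RNA.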

Other observations

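Among 20 myeloid transcription factors 5 rose and 2 fell. BCL6, a repressor of inflammatory and germinal centre genes, was at 9.14, 9.22 and 9.12 in CIGB-300 cells, against 8.20, 8.46 and 8.18 in untreated cells (0.88 ± 0.09, adjusted p = 2.52e-05 from limma). TFEB, the lysosomal regulator, rose by 0.74 ± 0.16 and MSC by 1.27 ± 0.31. CITED1 and VENTX rose by 0.67 and 0.61, and TFEC and NFE2 fell by 1.13 and 0.60 on the log2 scale (TFEC -0.72 without CIGB-300 replicate 1). The 5 rises were 3 without CIGB-300 replicate 2. CITED1 (0.53 to 0.65) and VENTX (0.45 to 0.65) lost their calls in 4 of the 6 fits that left out 1 array, and NFE2 lost its call without CIGB-300 replicate 3 or untreated replicate 2 (-0.34 and -0.51). HOX genes and their partners gave no call among 12 measured.

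Of 21 chromatin genes 6 rose, KDM6B, a demethylase of histone H3, by 0.78 ± 0.10 (adjusted p = 0.000143), the large zinc finger factors HIVEP2, HIVEP3 and HIVEP1 by 1.09, 0.72 and 0.66, CXXC5 by 0.74 and PHF6 by 0.64, while TET1, a DNA demethylation enzyme, fell by 0.73 on the log2 scale. HIVEP3 without untreated replicate 3 (0.53), HIVEP1 without untreated replicate 1 (0.56) and PHF6 without CIGB-300 replicate 2 or untreated replicate 3 (0.55 and 0.58) lost their calls, and TET1 lost its call without CIGB-300 replicate 1, untreated replicate 2 or untreated replicate 3 (-0.73 to -0.50). RHOB, an early-response small GTPase, was at 6.35, 6.76 and 6.48 in CIGB-300 cells, against 5.16, 5.39 and 5.35 in untreated cells (1.23 ± 0.17), and ARHGAP31 rose by 1.14 ± 0.17. Of 35 interferon-stimulated genes CXCL10 rose and APOBEC3F fell, with a list median of -0.15, and of 27 ribosome biogenesis genes 2 fell (TAF1A and YBEY, by 0.67 each on the log2 scale; TAF1A lost its call without CIGB-300 replicate 2, at -0.58, and YBEY without CIGB-300 replicate 3, at -0.54).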
